A study of Mus musculus with 12 samples.

Results

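The expression of 10 genes that govern the G1 phase of the cell cycle was followed through the response of mouse B cells to lipopolysaccharide (LPS), a bacterial cell wall component that B cells sense directly. These were the D cyclins Ccnd1, Ccnd2 and Ccnd3, the E cyclins Ccne1 and Ccne2, the kinases Cdk4 and Cdk6, and the inhibitors Cdkn1a, Cdkn1b and Cdkn2c. Each was taken as the row of its mouse Entrez gene identifier in a gene-wise count table, which gave 10 genes of 27179. The table held 12 RNA-seq libraries, 2 from each of 6 stages. All cells came from the spleens of male C57BL/6 (Pep3b) mice aged 6 to 12 weeks, and the labels name no transgene or deletion. Naive B cells (TCRβ- B220+ IgM+ with high IgD, among other markers) were sorted without culture. Every other stage came from naive cells that were isolated by negative selection and cultured with 25 μg/ml LPS. The day 4 cells came from a long-term culture that was set up at a lower cell density than that of the 3 h, 10 h and 33 h cells. Between 33 h and day 4, an effect of stage and an effect of culture density therefore cannot be told apart. Undivided, CD69+ cells, which kept the most of a dye that is diluted at each division, were sorted after 3 h, 10 h and 33 h, the last of which is shortly before the first division. On day 4 the culture was sorted into expanded B cells, which carried CD22 and lacked CD138, and plasmablasts, the antibody-secreting cells, which carried CD138 and lacked CD22. Because the model is a culture driven by LPS alone, it holds neither T cell help nor antigen, and day 4 cells are sorted from a mixture that had divided repeatedly.

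In G1, the D cyclins bind Cdk4 or Cdk6, and these complexes phosphorylate the retinoblastoma protein, which releases E2F transcription factors. Among the genes that E2F activates are the E cyclins, which bind Cdk2 and carry the cell into DNA synthesis. Cdkn2c (p18INK4c) binds Cdk4 and Cdk6 and keeps D cyclins away from them, while Cdkn1a (p21) and Cdkn1b (p27) bind assembled cyclin-kinase complexes and inhibit chiefly those with Cdk2. Resting B cells are held in G0 with high p27, D cyclins are induced when they are activated, and p18 is known for limiting the division of plasma cell precursors.

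Levels are given as RPKM, which are reads normalised for exon length and for library size, computed from the deposited counts after trimmed mean of M-values (TMM) scaling, so that genes of different length can be set side by side. Differences between stages are log2 fold changes with their standard error (SE) from an edgeR quasi-likelihood fit of all 12 libraries. A gene was called when its change exceeded 1.5-fold in the glmTreat test at a Benjamini-Hochberg adjusted p below 0.05 over the 12750 genes tested. An adjusted p given as 1 says only that the change was not shown to exceed 1.5-fold. The libraries of a stage are biological duplicates. No exact permutation test of 2 libraries against 2 can give a p below 0.333, so that ratios and shares are described without a test. Consecutive comparisons share the libraries of the stage between them, so a low value at that stage enters both. In bulk RNA, a change in the cells that hold a transcript and a change of the transcript per cell cannot be told apart. Levels are also relative to the total RNA of each population.

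The libraries held 23026619 to 60585587 counts, and all 10 genes passed the filter on low counts. Counts were low for Ccnd1, with 19 to 120 a library, and at the early stages for Ccne1, with 17 and 42 at 3 h, for Ccne2 and for Cdkn1a. Of the B cell markers, Cd79a had stage means of 612 to 2831 CPM, which are counts normalised for library size, and Ms4a1 of 399 to 1785 CPM. Cd22 and Pax5 were at means of 1558 and 418 CPM in naive cells and of 1.25 and 6.12 CPM in plasmablasts. Plasmablast markers (Sdc1, Prdm1, Xbp1, Jchain, Irf4) went from 389 and 362 CPM in naive cells to 16909 and 16396 CPM in plasmablasts. Naive libraries also held 426 and 265 CPM of 10 myeloid markers, against 39.5 to 106 CPM in the other libraries. They held 197 and 146 CPM of 6 erythroid markers, against 0.347 to 2.39 CPM, with no marker of either list at 0 in naive cells. The myeloid markers Itgam and Adgre1 were highest in expanded B cells, with means of 23.0 and 13.2 CPM against 6.91 and 10.6 in naive cells. Every other myeloid marker of the list was highest in naive cells, such as Lyz2 (93.1 CPM) and Cst3 (144 CPM). Of 10 T cell markers, 5 were at 0 in the 3 h libraries and the list summed to 1.38 to 10.0 CPM outside plasmablasts. There it reached 69.2 and 75.9 CPM through Cd28 (a mean of 67.9 CPM), which plasma cells also express. There Cd3e, Cd8a, Il7r and Thy1 were at 0, and Cd5 (3.27 CPM), Cd3g (0.853), Cd4 (0.338), Cd3d (0.128) and Cd8b1 (0.015) were detected. The members' replicate libraries differed most at 3 h, with a median log2 ratio of 0.40 in size against 0.25 over all tested genes.

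Ccnd2 was the cyclin that led the response. Its RPKM was 24.8 and 24.6 in the naive libraries, 321 and 274 in the 3 h libraries, 140.5 and 115 after 10 h and 179.6 and 210.1 by 33 h. After division it was 155 and 160.2 for expanded B cells and 80.2 and 80.9 for plasmablasts. No stages overlapped in Ccnd2, and the order from the highest was 3 h, 33 h, expanded B cells, 10 h, plasmablasts and naive cells. Ccnd2 rose 12.0-fold by 3 h (log2 3.59, SE 0.11, adjusted p = 2.8e-10). It then fell to 10 h (log2 -1.22, SE 0.11, adjusted p = 6.2e-05). From there to expanded B cells no change was called, with log2 changes of 0.61 (adjusted p = 0.64) and -0.31 (adjusted p = 1). Plasmablasts held less Ccnd2 than expanded B cells (log2 -0.97, SE 0.11, adjusted p = 0.0025), yet still 3.26-fold more than naive cells (log2 1.70, adjusted p = 2.2e-07). The gene lies on chromosome 6 from 127125162 to 127152188 (mm10, the build of the counts) and overlaps the annotated gene 9330179D12Rik.

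Ccnd3, the D cyclin that lymphoid progenitors depend on, followed another course. Its RPKM was 42.6 and 44.1 in naive cells, 23.0 and 30.4 in the 3 h libraries, 45.8 and 35.7 after 10 h and 178 and 177 by 33 h. On day 4, expanded B cells had 59.1 and 52.9 and plasmablasts 22.6 and 24.0. The 33 h libraries stood apart, while naive cells overlapped the 10 h libraries and the 3 h libraries overlapped plasmablasts. Ccnd3 rose from 10 h to 33 h (log2 2.12, SE 0.13, 4.35-fold, adjusted p = 4.8e-07), after changes of -0.69 (adjusted p = 0.16) and 0.61 (adjusted p = 0.43) at the earlier steps that were not called. When libraries were scaled by their size alone, these earlier changes were -0.90 (adjusted p = 0.016) and 0.93 (adjusted p = 0.014). Both were also called without 3 h replicate 2, at -0.94 (adjusted p = 0.0063) and 0.84 (adjusted p = 0.033). Ccnd3 fell to expanded B cells (log2 -1.67, SE 0.13, adjusted p = 2.3e-05) and fell again in plasmablasts (log2 -1.26, SE 0.13, adjusted p = 2.0e-04). Plasmablasts ended below naive cells (log2 -0.89, adjusted p = 0.011), a call that was lost without plasmablast replicate 1 (adjusted p = 0.057) and in DESeq2 (adjusted p = 0.088). Ccnd3 spans 47505051 to 47599689 on chromosome 17 and shares part of that span with Bysl.

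Ccnd1, the D cyclin of many epithelial and mesenchymal cells, was nearly absent throughout. Its RPKM was 0.731 and 1.23 in naive cells, 0.279 and 0.571 in the 3 h libraries, 0.301 and 0.265 after 10 h and 0.277 and 0.308 by 33 h. The day 4 values were 0.422 and 0.403 for expanded B cells and 0.636 and 0.595 for plasmablasts. The naive libraries were the highest. Replicates differed by 0.74 on the log2 scale in naive cells and by 1.03 at 3 h, the widest spreads of any member at these stages. Ccnd1 fell by 33 h relative to naive cells (log2 -1.73, SE 0.31, adjusted p = 0.0016). The fall to 3 h was marginal (log2 -1.12, SE 0.32, adjusted p = 0.042). It was -0.72 without naive replicate 2 (adjusted p = 0.31), -0.76 without 3 h replicate 1 (adjusted p = 0.25) and -1.82 on leaving out 3 h replicate 2. The call was also lost without either library of 33 h or of expanded B cells (adjusted p of 0.051 to 0.053). The naive libraries, where Ccnd1 was highest, also held the most myeloid and erythroid marker counts given above. Naive replicate 2, with the more Ccnd1, held less of both than naive replicate 1. Their part in the Ccnd1 level was not tested. Ccnd1 (chromosome 7, 144929931 to 144939831) overlaps LTO1.

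**Figure D1:**
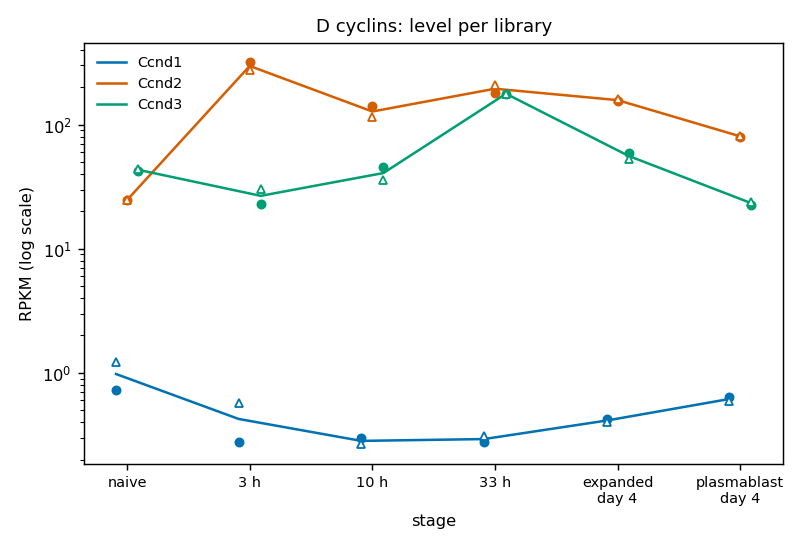
RPKM of Ccnd1, Ccnd2 and Ccnd3 (y axis, log scale) at the 6 stages (x axis), where filled circles are replicate 1, open triangles replicate 2 and lines join the means. Ccnd2 peaked at 3 h with 321 and 274 RPKM and Ccnd3 at 33 h with 178 and 177 RPKM, while Ccnd1 did not exceed 1.23 RPKM.

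The makeup of the D cyclin pool differed from stage to stage. Ccnd3 made up 62.8% ± 0.344 (SD, n = 2) of the summed D cyclin RPKM in naive cells and Ccnd2 35.8% ± 0.823. This order rests on the division by exon length, since in counts without it Ccnd2 made up 58.4% and Ccnd3 40.1%. At 3 h, Ccnd2 made up 91.5% ± 2.41 and Ccnd3 8.33% ± 2.33. By 33 h the shares were 52.2% ± 2.90 Ccnd2 and 47.7% ± 2.90 Ccnd3 (73.5% and 26.4% without division by length), after which Ccnd2 again led with 73.7% ± 1.95 among expanded B cells and 77.1% ± 0.604 among plasmablasts. The share of Ccnd1 was at most 1.75% in any library. The summed level of the D cyclins was 69.0 ± 1.32 RPKM in naive cells, 324 ± 28.1 in the 3 h libraries, 169 ± 25.3 after 10 h, 373 ± 20.7 by 33 h, 214 ± 0.943 for expanded B cells and 104 ± 1.44 for plasmablasts. The pool was thus high at both 3 h and 33 h, first as Ccnd2 and then as both cyclins.

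**Figure D2:**
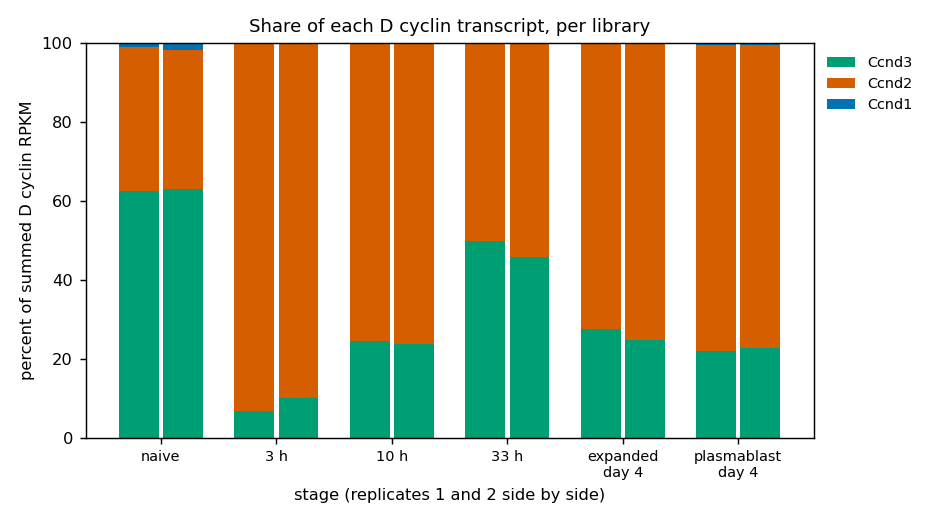
Share of Ccnd1, Ccnd2 and Ccnd3 in their summed RPKM (y axis, percent) in each of the 12 libraries (x axis, replicates 1 and 2 of a stage side by side). On average Ccnd3 held 62.8% in naive cells and 8.33% at 3 h, and Ccnd2 went from 35.8% to 91.5%.

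Both E cyclins rose from 10 h to 33 h, while their earlier changes differed. For Ccne1, RPKM was 3.82 and 3.43 in naive cells, 0.485 and 0.705 in the 3 h libraries, 3.35 and 2.35 after 10 h and 35.7 and 42.0 by 33 h. After division it was 35.7 and 36.2 for expanded B cells and 19.8 and 21.9 for plasmablasts. The lowest and the highest stage differed 65.4-fold in mean RPKM, the widest range among the 10 genes, and the 33 h libraries overlapped the expanded B cells. Ccne1 first fell (log2 -2.55, SE 0.25, adjusted p = 2.0e-06), to 17 and 42 counts at 3 h. The naive libraries it fell from held the marker counts of other cell types given above, whose part was not tested. Ccne1 then rose to 10 h (log2 2.21, SE 0.25, adjusted p = 2.3e-05) and further to 33 h (log2 3.76, SE 0.15, adjusted p = 5.5e-09). The change from 33 h to expanded B cells was -0.11 (adjusted p = 1) and that to plasmablasts -0.78 (SE 0.14, adjusted p = 0.10), neither of them called. Scaled by library size alone, the change to plasmablasts was -1.12 (adjusted p = 0.0016). It was also called with only the 4 libraries compared (adjusted p = 0.0090) and without 3 h replicate 2 (adjusted p = 0.049). Relative to naive cells Ccne1 was 10.7-fold higher at 33 h and 5.74-fold higher in plasmablasts. The gene lies on chromosome 7 from 38097984 to 38107490.

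Ccne2 did not show the early fall. Its RPKM was 0.321 and 0.313 in naive cells, 0.607 and 0.623 in the 3 h libraries, 0.782 and 0.608 after 10 h and 5.37 and 5.74 by 33 h. On day 4, expanded B cells had 7.64 and 6.01 and plasmablasts 6.75 and 6.32. It was low in all libraries before 33 h and high in all libraries from then on, with 3 h overlapping 10 h and expanded B cells overlapping plasmablasts. The rise to 33 h was 7.92-fold (log2 2.99, SE 0.16, adjusted p = 6.7e-08), and the changes that followed were 0.30 and -0.06 (adjusted p = 1 for both). An increase from naive cells to 3 h was called by a narrow margin (log2 0.95, SE 0.24, adjusted p = 0.049) on 26 to 61 counts a library. It was lost without either library of naive cells, 3 h, 33 h or plasmablasts (adjusted p of 0.054 to 0.13) and in DESeq2 (adjusted p = 0.45). Ccne2 (chromosome 4, 11190433 to 11204779) overlaps Ints8. Since the sources used here do not state whether reads were counted by strand, reads of overlapping genes cannot be told apart for it or for the other members with an overlap.

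Ccne1 made up 91.9% ± 0.434 of the summed E cyclin RPKM in naive cells, 48.8% ± 6.15 at 3 h, when Ccne1 was at its lowest, and 76.1% to 87.5% on average from 10 h on. The sum went from 3.94 ± 0.282 RPKM in naive cells and 1.21 ± 0.167 at 3 h to 44.4 ± 4.70 at 33 h. The D cyclins exceeded the E cyclins by a factor of 17.6 ± 1.59 in naive cells, 272.5 ± 61.0 in the 3 h libraries, 48.1 ± 4.08 after 10 h, 8.41 ± 0.424 by 33 h, 5.01 ± 0.0718 for expanded B cells and 3.82 ± 0.118 for plasmablasts. From 3 h on the ratio was lower at each later stage, with no overlap between the libraries of any stages. In counts without division by length the ratio went from 30.2 in naive cells and 573 at 3 h to 8.41 in plasmablasts, in the same order of stages.

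The 2 kinases differed both in level and in time. Cdk4 had the highest mean RPKM of the members at every stage but 3 h. This rank rests on the division by exon length, since Ccnd2 had more counts than Cdk4 in every library (4840 against 3849 in naive replicate 1). Cdk4 had 84.4 and 83.9 RPKM in naive cells, 94.1 and 120 in the 3 h libraries, 233 and 225 after 10 h and 269 and 315 by 33 h. The day 4 values were 238 and 240.2 for expanded B cells and 218 and 209 for plasmablasts. The libraries split into a low pair of stages, naive and 3 h, and a high set from 10 h on that spanned 209 to 315 RPKM. Its change was called only from 3 h to 10 h among consecutive stages (log2 1.10, SE 0.11, 2.14-fold, adjusted p = 3.2e-04), and naive cells were 3.47-fold below 33 h (log2 1.79, adjusted p = 2.0e-07). From naive cells to 3 h the change was 0.35 (SE 0.11), and the same value was found from 10 h to 33 h (adjusted p = 1 for both).

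Cdk6, in contrast, rose at the first step. Its RPKM was 2.92 and 2.21 in naive cells, 17.0 and 12.8 in the 3 h libraries, 13.3 and 15.1 after 10 h and 7.52 and 9.44 by 33 h. After division it was 5.03 and 4.99 for expanded B cells and 3.50 and 3.60 for plasmablasts. The 3 h and 10 h libraries overlapped, and each later stage lay below the one before it. The rise was 5.76-fold (log2 2.53, SE 0.17, adjusted p = 1.9e-07). None of the later steps was called on its own, with -0.07, -0.75 (adjusted p = 0.26), -0.75 (adjusted p = 0.31) and -0.50 (adjusted p = 0.83). Plasmablasts differed from naive cells by 0.46 (SE 0.18, adjusted p = 0.69), so at this stage no change past 1.5-fold was detectable, while at 33 h Cdk6 was 3.27-fold above naive cells (adjusted p = 2.1e-05). The ratio of Cdk4 to Cdk6 RPKM was 33.4 ± 6.34 in naive cells, 7.43 ± 2.69 in the 3 h libraries, 16.2 ± 1.90 after 10 h, 34.6 ± 1.72 by 33 h, 47.7 ± 0.582 for expanded B cells and 60.2 ± 2.93 for plasmablasts, without overlap between any consecutive stages. Without division by length the ratios were all lower by the same factor, from 4.05 at 3 h to 32.8 in plasmablasts. The order of stages could not change with it.

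**Figure D3:**
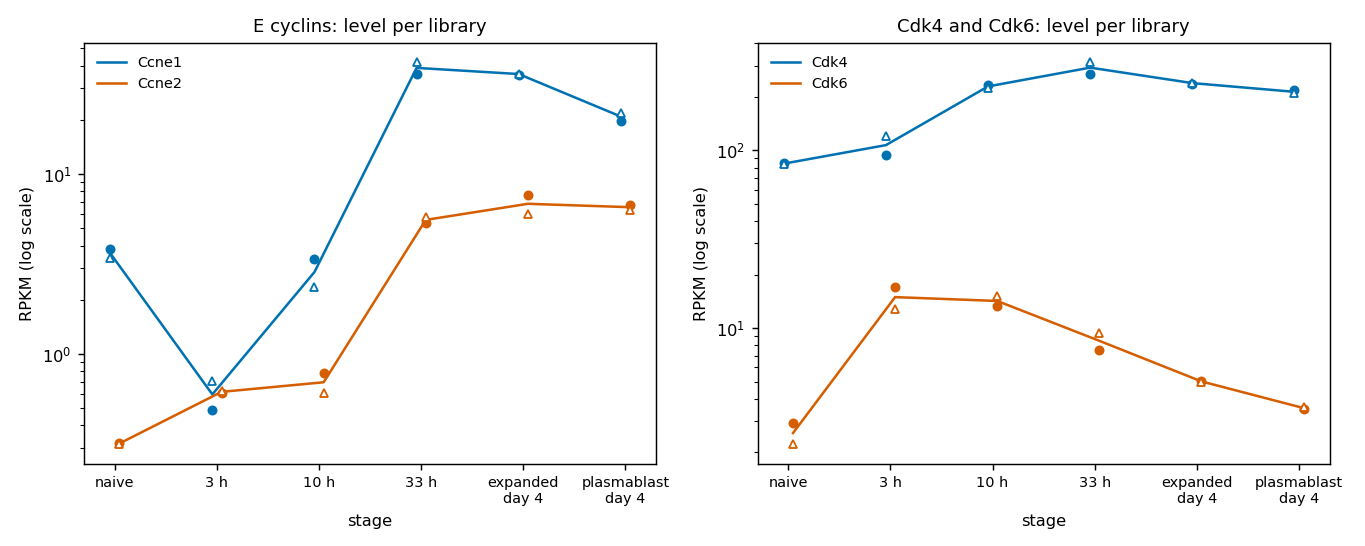
RPKM of Ccne1 and Ccne2 (left) and of Cdk4 and Cdk6 (right) on log scales (y axes) at the 6 stages (x axes), with replicate 1 as filled circles, replicate 2 as open triangles and lines through the means. Ccne1 reached 35.7 and 42.0 RPKM at 33 h, Cdk4 rose to 233 and 225 RPKM at 10 h, and Cdk6 was highest at 3 h and 10 h.

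RefSeq promoter windows (GRCm38.p6, 250 bases before to 50 bases after a start) were matched for 7 of the 10 members. Ccnd1, Ccnd2 and Ccne2 had no window. The E-box CACGTG, a palindrome that Myc with Max and other factors can bind, was searched because Cdk4 is a known Myc target. It is in 7.15% of all 32851 windows of this length, and 8 windows (0.0244%) hold 4 or more. The window of Cdk4 holds 4, with starts at -172, -118, -98 and -11 relative to the gene start. The window of Cdk6 holds 1, at -220. A loose pattern for an E2F site, TTTNNCGC with any base at N, was also searched on either strand, and 5.17% of windows hold it. The window of Cdk6 holds it at -198 as TTTTACGC. Because the pattern leaves its middle bases open, this match need not be an E2F site. No window of the other matched members, Ccne1 included, holds a TTTNNCGC. A window of Cdkn2c holds 1 CACGTG, at 34 bases after its start. The 250 bases before the start of Cdk4, at chr10:127063285-127063534 on the plus strand, are given 5′ to 3′ with each CACGTG in capitals. They are shown since this gene rose from 3 h to 10 h and no other member's window holds as many. The letters alone do not show binding.
Cdk4: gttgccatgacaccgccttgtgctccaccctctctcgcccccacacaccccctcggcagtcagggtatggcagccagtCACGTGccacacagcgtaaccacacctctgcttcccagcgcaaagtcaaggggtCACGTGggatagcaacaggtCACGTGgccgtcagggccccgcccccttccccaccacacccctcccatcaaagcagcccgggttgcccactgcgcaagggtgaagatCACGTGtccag

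Cdk4 covers 127063535 to 127067288 on chromosome 10 and overlaps Tspan31, and Cdk6 covers 3341004 to 3531008 on chromosome 5.

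The inhibitor Cdkn1a, which codes for p21, moved more often than any other member. It was called at 4 of the 5 consecutive comparisons, up to 3 h and to 10 h, down to 33 h and up in expanded B cells. RPKM was 0.554 and 0.632 in naive cells, 3.74 and 3.60 in the 3 h libraries, 32.4 and 20.7 after 10 h and 3.43 and 6.27 by 33 h. On day 4, expanded B cells had 24.1 and 23.4 and plasmablasts 12.96 and 15.5. The 10 h libraries overlapped expanded B cells and the 33 h libraries overlapped 3 h, which put undivided cells close to their first division well below both the stage before and the stage after. Cdkn1a rose 6.2-fold by 3 h (log2 2.63, SE 0.39, adjusted p = 1.7e-04) and a further 7.26-fold by 10 h (log2 2.86, SE 0.27, adjusted p = 1.5e-05). It then fell to 33 h (log2 -2.48, SE 0.25, adjusted p = 6.7e-05) and rose in expanded B cells (log2 2.31, SE 0.25, adjusted p = 2.3e-04). The change to plasmablasts was -0.73 (SE 0.24, adjusted p = 0.31). The replicates at 10 h and 33 h differed by 0.65 and 0.87 on the log2 scale, the widest of any member at those stages. Without 33 h replicate 2, the higher of its pair, the fall was -2.95 and the rise 2.78, and without 33 h replicate 1 they were -2.08 and 1.92. Plasmablasts held 24.1-fold more Cdkn1a than naive cells (log2 4.59, SE 0.37, adjusted p = 3.1e-07).

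Cdkn1a lies on chromosome 17 from 29090979 to 29100722 and is a textbook target of p53. A p53 site, searched as a pair of p53 decamers without mismatch, at most 13 bases apart on either strand, is in 24 of the 32851 promoter windows (0.0731%). The window of the upstream Cdkn1a start holds one that begins at -73. The downstream Cdkn1a window holds none, and neither does the matched window of any other member. The 250 bases before that start, at chr17:29090729-29090978 on the plus strand, are shown 5′ to 3′ because the genes listed as p53 targets are described beside Cdkn1a. The capitals run from the first base of the first decamer to the last base of the second. The bases tgacatgttc that directly follow the capitals depart from the decamer pattern only in their first base. The search did not count them, so the capitals need not be the full extent of the site.
Cdkn1a: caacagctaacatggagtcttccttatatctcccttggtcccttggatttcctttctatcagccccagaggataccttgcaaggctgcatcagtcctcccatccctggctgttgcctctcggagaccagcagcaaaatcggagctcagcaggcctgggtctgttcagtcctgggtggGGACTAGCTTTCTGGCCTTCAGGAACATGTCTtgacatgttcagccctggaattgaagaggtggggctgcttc

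Cdkn1b, which codes for p27 and is held high in resting lymphocytes, fell at the first step. Its RPKM was 26.3 and 26.9 in naive cells, 11.9 and 7.33 in the 3 h libraries, 11.0 and 11.0 after 10 h and 9.43 and 8.73 by 33 h. The day 4 values were 12.1 and 12.98 for expanded B cells and 16.5 and 15.5 for plasmablasts. The naive libraries stood apart above all others, the wide 3 h pair overlapped both 10 h and 33 h, which did not overlap each other, and expanded B cells and plasmablasts lay in steps above them. The fall by 3 h was 2.80-fold (log2 -1.48, SE 0.16, adjusted p = 5.8e-05). None of the 4 later steps was called (log2 changes of 0.21, -0.27, 0.47 and 0.35, adjusted p = 1 for each). At 33 h the level was still below naive cells (log2 -1.55, SE 0.16, adjusted p = 3.3e-05), and for plasmablasts the difference was -0.73 (SE 0.16, adjusted p = 0.12). The latter was called without 3 h replicate 1 (adjusted p = 0.028) or 3 h replicate 2 (adjusted p = 0.011), and with only the 4 libraries compared (log2 -0.78, adjusted p = 0.0040). Naive libraries also held the most myeloid and erythroid marker counts, and their part in the level of Cdkn1b was not tested. Cdkn1b lies on chromosome 6 from 134920401 to 134925525.

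Cdkn2c, which codes for p18INK4c, rose late. Its RPKM was 7.96 and 7.29 in naive cells, 6.00 and 4.04 in the 3 h libraries, 4.57 and 4.16 after 10 h and 13.5 and 15.0 by 33 h. After division it was 16.1 and 16.1 for expanded B cells and 37.5 and 30.8 for plasmablasts. The 3 h and 10 h libraries overlapped and were the lowest, and plasmablasts were the highest without overlap. Cdkn2c rose from 10 h to 33 h (log2 1.70, SE 0.17, 3.26-fold, adjusted p = 5.5e-05) and from expanded B cells to plasmablasts (log2 1.08, SE 0.16, 2.12-fold, adjusted p = 0.0042). The early changes were -0.64 (adjusted p = 0.31) and -0.17. The first of them was -0.91 and called without 3 h replicate 1 (adjusted p = 0.029), and -0.38 without 3 h replicate 2. The rise in plasmablasts was 0.75 with an adjusted p of 0.14 when libraries were scaled by their size alone, a scaling that also moved the median of all genes by -0.34 at this step. Over the whole course Cdkn2c rose 4.46-fold to plasmablasts (log2 2.16, SE 0.16, adjusted p = 4.3e-07). Its smaller gain from naive cells to 33 h (log2 0.90, adjusted p = 0.026) was lost without naive replicate 2 (adjusted p = 0.090), without 33 h replicate 2 (adjusted p = 0.093) and in DESeq2 (adjusted p = 0.35). The gene lies on chromosome 4 from 109660876 to 109666756.

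**Figure D4:**
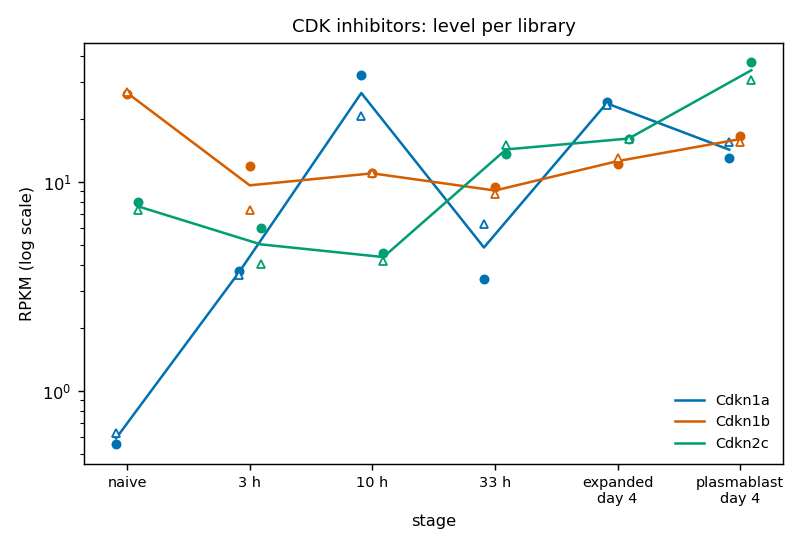
RPKM of Cdkn1a, Cdkn1b and Cdkn2c (y axis, log scale) at the 6 stages (x axis), with a filled circle for replicate 1, an open triangle for replicate 2 and a line through the means. Cdkn1b was highest in naive cells (26.3 and 26.9), Cdkn1a at 10 h (32.4 and 20.7) and again in the expanded B cells (24.1 and 23.4), and Cdkn2c in plasmablasts (37.5 and 30.8).

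The makeup of the 3 inhibitors also changed with stage. Of their summed RPKM, Cdkn1b made up 76.4% ± 1.22 in naive cells, Cdkn1a 62.7% ± 6.92 at 10 h, and Cdkn2c 50.6% ± 0.814 at 33 h and 52.9% ± 4.33 in plasmablasts. Without division by length Cdkn1b led Cdkn2c at 33 h, with 46.3% against 33.3%. In plasmablasts the mean shares were then 36.6% for Cdkn1b and 35.9% for Cdkn2c, and the replicates differed in order. Counts there were 938 Cdkn1b against 978 Cdkn2c in replicate 1 and 1055 against 965 in replicate 2. In expanded B cells Cdkn1a again had the greatest share at 45.3% ± 1.02. The sum itself moved less, from 34.8 ± 0.0377 RPKM in naive cells and 18.3 ± 4.71 at 3 h to 52.4 ± 0.121 on day 4 in expanded B cells and 64.3 ± 3.66 for plasmablasts.

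Counted over all members, 7 of 10 changed from naive cells to 3 h, 4 up (Ccnd2, Ccne2, Cdk6, Cdkn1a) and 3 down (Ccnd1, Ccne1, Cdkn1b), where 45.3% of all tested genes were called, 21.0% up and 24.3% down. From 3 h to 10 h it was 4 of 10, with Ccne1, Cdk4 and Cdkn1a up and Ccnd2 down, where 30.8% of all genes were called, 17.4% up and 13.4% down. From 10 h to 33 h it was 5 of 10, with Ccnd3, Ccne1, Ccne2 and Cdkn2c up and Cdkn1a down, where 14.5% of all genes were called, 10.1% up and 4.45% down. After division 2 members were called, Cdkn1a up and Ccnd3 down, where 10.6% of all genes were called, 6.94% up and 3.66% down. From expanded B cells to plasmablasts 3 members were called, Cdkn2c up and Ccnd2 and Ccnd3 down, where 26.1% of all genes were called, 13.9% up and 12.2% down. All 10 differed between naive cells and 33 h, 8 of them up, where 43.1% of all genes were called, 22.3% up and 20.8% down. Between naive cells and plasmablasts 7 of 10 differed, 6 of them up and Ccnd3 down, where 50.0% of all genes were called, 26.6% up and 23.4% down. The members' median change was 0.48 from 10 h to 33 h beside -0.02 over all tested genes, and -0.33 beside -0.05 from expanded B cells to plasmablasts. In the F-test, which asks for any change rather than one past 1.5-fold, 5 members were higher and 5 lower at 3 h than in naive cells, as were 34.7% and 36.3% of all tested genes. At the next step 4 were higher and 1 lower (32.1% and 30.2% of all genes), and from 10 h to 33 h 6 were higher and 2 lower (23.2% and 22.2%). Expanded B cells had 2 members higher and 4 lower than at 33 h (18.5% and 21.2%), and plasmablasts had 1 higher and 5 lower than expanded B cells (27.2% and 29.7%). Against naive cells it was 8 higher and 2 lower at 33 h (35.8% and 35.1%) and 7 higher and 2 lower in plasmablasts (38.2% and 35.9%). The 10 genes were chosen for their role, so these shares describe them only.

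**Figure D5:**
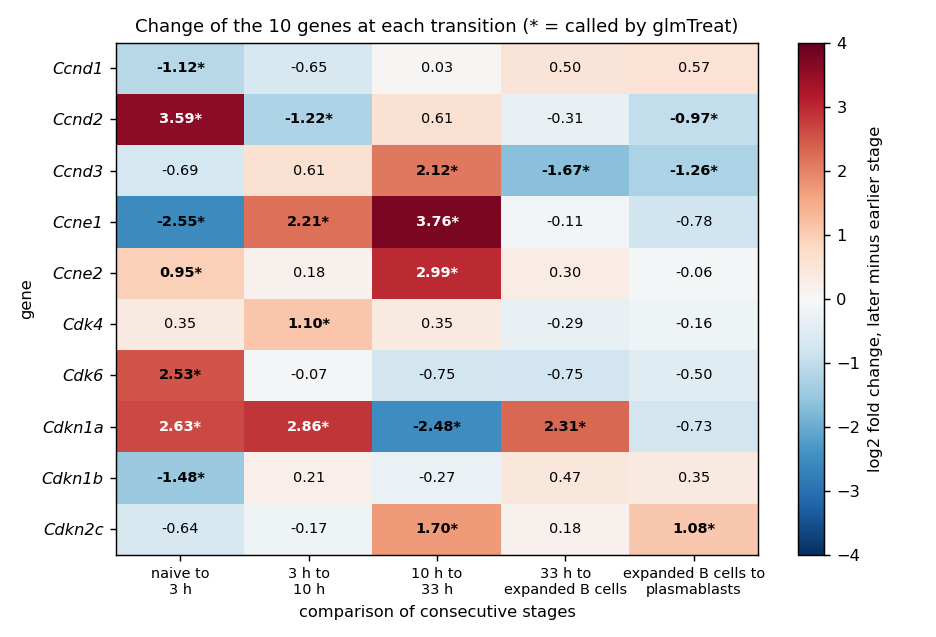
Heat map of the log2 fold change, later minus earlier stage, of each of the 10 genes (rows) at the 5 consecutive comparisons (columns), in red for higher and blue for lower, with an asterisk where glmTreat called the gene. Cdkn1a was called at 4 comparisons and Cdk4, Cdk6, Cdkn1b and Ccnd1 at 1 each.

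Further genes of the same machinery were read from 6 lists. For comparison, of all tested genes 21.0% were called up and 24.3% down by 3 h, 17.4% and 13.4% by 10 h, and 10.1% and 4.45% by 33 h. In expanded B cells it was 6.94% up and 3.66% down, and in plasmablasts 13.9% and 12.2%. Of the 5 other CDK inhibitors, 2 were called up and 2 down by 3 h, 2 up and 1 down by 10 h, 3 up and 1 down by 33 h, 3 up and 0 down in expanded B cells, and 1 up and 1 down in plasmablasts. Cdkn2d (p19INK4d) fell from naive cells, with 32.8 and 36.2 RPKM in naive cells and 3.60 and 2.76 at 3 h (log2 -3.46, SE 0.15, adjusted p = 2.4e-09). It returned to 19.8 and 17.5 at 33 h (log2 2.53, SE 0.14, adjusted p = 1.0e-07). Like Cdkn1b it was highest in naive cells. Cdkn2a, which codes for p16INK4a and p19ARF, was at 0.026 to 0.058 RPKM in the naive and 3 h libraries and had 1.4 and 2.16 RPKM at 33 h. It had 44.7 and 39.2 in expanded B cells (log2 4.59, SE 0.18, adjusted p = 2.3e-08) and 21.2 and 18.8 in plasmablasts (log2 -1.07, SE 0.15, adjusted p = 0.0046). Its RPKM in expanded B cells was thus above that of Cdkn1a. No fold is given for the early stages because the counts were too few. Its neighbour Cdkn2b (p15INK4b) was at 0.755 and 2.25 RPKM at 33 h and at 6.74 and 6.55 in expanded B cells (log2 2.21, SE 0.38, adjusted p = 0.0047). Cdkn3, a phosphatase of Cdk2, rose from 10 h to 33 h (log2 4.07, SE 0.30, adjusted p = 6.3e-07). Cdkn1c (p57) fell there (log2 -2.07, SE 0.33, adjusted p = 0.0012) from 0.546 and 0.858 to 0.186 and 0.132 RPKM.

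The cyclins and kinases of S phase and mitosis rose at the step at which the E cyclins did. All 6 tested genes of that list were called up from 10 h to 33 h, with a median of 4.13 beside -0.02 over all tested genes, after 4 of 6 had been called up from 3 h to 10 h. Ccna2, the cyclin of S phase and G2, went from 5.83 and 4.11 RPKM at 10 h to 93.4 and 132 at 33 h (log2 4.5, SE 0.18, adjusted p = 1.8e-08). The mitotic cyclin Ccnb2 went from 1.66 and 1.58 to 23.1 and 42.6 RPKM (log2 4.33, SE 0.25, adjusted p = 2.2e-07). It was the 1 gene of the list to rise again in expanded B cells (log2 1.52, SE 0.20, adjusted p = 0.0020). The 33 h replicates differed in these genes as they did in Cdkn1a, with replicate 2 the higher, and the part of these genes in the Cdkn1a values was not tested.

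Among the 13 retinoblastoma and E2F genes, 7 were called up and none down from 10 h to 33 h by glmTreat (8 up and 2 down in the F-test without a fold threshold). E2f8 and E2f7, repressors that E2F itself induces, changed most (log2 4.37, SE 0.14, and 4.27, SE 0.19). E2f1, an activator, went from 4.12 and 2.76 RPKM at 3 h to 12.0 and 8.74 at 10 h (log2 1.62, SE 0.18, adjusted p = 7.8e-05). It reached 46.4 and 42.9 at 33 h and fell to 18.9 and 19.3 in expanded B cells (log2 -1.22, SE 0.16, adjusted p = 0.0024). Rbl2 (p130), the pocket protein of resting cells, fell from 26.8 and 24.7 RPKM to 7.81 and 5.38 by 3 h (log2 -1.98, SE 0.15, adjusted p = 1.1e-06), at the step at which Cdkn1b and Cdkn2d fell and from the same naive libraries. Of the 13 genes for ubiquitin ligases that act on cyclins and p27, 3 were called up and 1 down by 3 h and 3 up and 1 down by 10 h. All tested genes had 21.0% up and 24.3% down, then 17.4% and 13.4%. By 33 h, 4 of the list were up and 0 down (5 up and 4 down in the F-test), beside 10.1% and 4.45% of all tested genes. The list's median change at this step was -0.12, beside -0.02 over all tested genes. Skp2, the subunit that recognises p27, was low in naive cells (0.453 and 0.594 RPKM) and rose from 3 h to 10 h (log2 1.46, SE 0.20, adjusted p = 5.3e-04), the step after the one at which the Cdkn1b transcript fell. Fbxo5, an inhibitor of the anaphase-promoting complex, rose from 10 h to 33 h (log2 4.22, SE 0.17, adjusted p = 5.2e-09).

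Of the 9 genes for the CDK-activating kinase, the CDC25 phosphatases and the inhibitory kinases, 5 were called up and 0 down from 10 h to 33 h (6 up and 2 down in the F-test). Of all tested genes, 10.1% were called up and 4.45% down at this step (23.2% and 22.2% in the F-test). Cdc25b, an activator of CDKs at mitosis, fell from 48.5 and 46.2 RPKM in naive cells to 5.06 and 4.30 at 3 h (log2 -3.35, SE 0.16, adjusted p = 6.7e-09). It rose again to 33 h (log2 1.87, SE 0.15, adjusted p = 9.0e-06) and to expanded B cells (log2 2.11, SE 0.14, adjusted p = 5.3e-06). Cdc25a, which acts on Cdk2 in G1, rose by 3 h (log2 0.89, SE 0.12, adjusted p = 0.0074). Wee1, which inhibits CDKs, rose by 3 h too (log2 2.05, SE 0.13, adjusted p = 1.3e-07).

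Of the 14 tested genes listed as p53 and its targets, 6 were called up and 2 down from 3 h to 10 h, 0 up and 6 down from 10 h to 33 h (0 up and 12 down in the F-test). It was 5 up and 0 down from 33 h to expanded B cells (12 up and 2 down in the F-test), and 1 up and 3 down in plasmablasts. The list's median changes at these 4 steps were 0.41, -0.89, 0.71 and -0.38, with medians of all tested genes between -0.05 and 0.02. Phlda3, a p53 target that restrains Akt, went from 0.342 and 0.291 RPKM at 3 h to 39.4 and 24.7 at 10 h (log2 6.68, SE 0.44, adjusted p = 2.4e-08). It was down to 3.03 and 4.41 at 33 h (log2 -3.12, SE 0.22, adjusted p = 8.5e-07) and back up to 17.8 and 15.6 RPKM in the expanded B cells (log2 2.19, SE 0.22, adjusted p = 7.9e-05). Not every listed gene took this course. Mdm2 was called at none of the consecutive steps (log2 0.29, 0.18, -0.28, 0.79 and 0.27). Trp53inp1 was the 1 gene called up in plasmablasts (log2 3.42, SE 0.18, adjusted p = 1.2e-07). Trp53 itself, the gene for p53, was called up from naive cells to 3 h (log2 1.30, SE 0.09, adjusted p = 2.6e-06). At the next 3 steps its changes were -0.03, -0.51 and -0.49, none of them called. Trp53 was called down from expanded B cells to plasmablasts (log2 -0.93, SE 0.09, adjusted p = 0.0020).

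To show which transcripts had the most similar course, Pearson's r of log2 CPM over the 12 libraries was taken against 8263 well-expressed genes and the top 2 were read for each member. These correlations share libraries and stage structure and are descriptions. For Ccnd2 the closest was Srsf2, a splicing factor (r = 0.996), and then Slc16a1, a lactate transporter (r = 0.99). Ccne1 was closest to Haus4 and Brca2 (r = 0.99 for both), and Ccne2 to Ncaph (r = 0.995) and Smc2 (r = 0.995), both condensin subunits. Cdk4 was closest to Pus10 and Bcat1 (r = 0.98 for both), and Cdk6 to Zzz3 and Aen (r = 0.98 for both). Cdkn2c was closest to Oxct1 and Derl3 (r = 0.98 for both). Cdkn1b was closest to Cep120 (r = 0.96) and Sp3 (r = 0.95), and Cdkn1a to Phf10 (r = 0.95) and Ptpmt1 (r = 0.94). Ccnd3 was closest to Sclt1 (r = 0.96) and Pold1 (r = 0.95), and Ccnd1 to Mef2c (r = 0.92) and Rps23rg1 (r = 0.91). None of the 20 genes was itself a member.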

How the data were processed

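The authors used Rsubread to map paired RNA-seq reads on mm10, obtained gene-level values with featureCounts and its inbuilt Entrez annotation, and deposited raw counts with exon lengths. The 12 deposited single-library count files were identical to the series table. Stages were taken from the labels. Genes with no entry in the gene table (1904), X and Y (1279), mitochondrial (15), rRNA (33) and variable immunoglobulin genes (475) were removed, edgeR's filterByExpr kept 12750 genes, and TMM factors, glmQLFit in robust mode and glmTreat at 1.5-fold were applied over all 12 libraries (R 4.3.3, edgeR 4.0.16, limma 3.58.1; DESeq2 1.42.0 as an alternative), with Benjamini-Hochberg adjustment at 0.05. RPKM used the deposited exon length and TMM-scaled library sizes. The test was tried on simulated data. The genes kept held 84.0% to 90.6% of each library's counts, at 23026619 to 60585587 counts a library. The 10 members and all lists were chosen with earlier results of these data known. Named were all members, per list the 2 called genes with the largest rise and fall at most at each consecutive step, and the 2 genes most correlated with each member. Values of Cdkn2a and Ccnb2 after the step that named them, of Mdm2 and of Trp53 at other steps were added after they were seen. Promoters came from RefSeq (GRCm38.p6). Ccna1 (0 counts) and Eda2r (X) were listed but not tested.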

Additional observations from a re-analysis of the deposited data

How the results depend on the processing

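Of the 38 calls on members, 33 kept their direction and stayed past the threshold in every alternative, and no called change turned direction. The 5 others were Ccnd1 and Ccne2 from naive cells to 3 h, Cdkn2c and Ccnd3 against naive cells (33 h and plasmablasts), and Cdkn2c from expanded B cells to plasmablasts. With the F-test in place of the 1.5-fold threshold, 8 members were called from 10 h to 33 h. It was 6 from 33 h to expanded B cells and 6 from expanded B cells to plasmablasts. Of the other pathway genes, in lists of 5, 6, 9, 13, 13 and 14 tested genes, 46 were called from naive cells to 3 h. At the 3 later steps just named, 50, 34 and 29 of them were called. Over all tested genes the F-test called 34.7% up and 36.3% down from naive cells to 3 h. At these 3 steps it was 23.2% up and 22.2% down, 18.5% and 21.2%, and 27.2% and 29.7%. Scaling by library size alone turned 3 small, uncalled changes: Cdk6 (0.27) and Cdkn2c (0.16) from 3 h to 10 h and Ccnd1 from 10 h to 33 h (-0.023). It added 5 calls, Ccnd3 from naive cells to 3 h and from 3 h to 10 h, Ccne1 and Cdkn1a from expanded B cells to plasmablasts, and Cdkn1b from naive cells to plasmablasts, and shifted the median of all genes by -0.21 from naive cells to 3 h and 0.33 from 3 h to 10 h. The cause was not tested.

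Without 1 library in turn, the number of members called ranged over 5 to 7, 4 to 5, 5 to 5, 2 to 2 and 3 to 4 at the consecutive steps, 9 to 10 from naive cells to 33 h and 6 to 8 to plasmablasts. The uncalled changes whose sign turned ranged from -1.0 to 0.040 (Ccnd1), -0.016 to 0.35 (Ccne2), -0.25 to 0.15 (Cdk6), -0.10 to 0.58 (Cdkn1b) and -0.44 to 0.12 (Cdkn2c) from 3 h to 10 h, from -0.047 to 0.14 for Ccnd1 from 10 h to 33 h, from -0.23 to 0.0018 for Ccne1 from 33 h to expanded B cells, and from -0.23 to 0.12 for Ccne2 from expanded B cells to plasmablasts. Correlations of the replicate deviations between stages ranged from -0.14 to 0.084, with 0 of 15 over 0.1. The highest was between expanded B cells and plasmablasts. With 2 libraries a stage, these cannot show whether libraries of the same replicate number shared mice or a culture. With the replicate number as a block no member call changed and 5753 rather than 5774 genes were called from naive cells to 3 h. Without division by exon length, the order of Ccnd2 and Ccnd3 turned in naive cells, and Ccnd2 exceeded Cdk4 in every library. The order of Cdkn1b and Cdkn2c turned at 33 h, while in plasmablasts it differed between the replicates. Low counts (17 to 120) limit Ccnd1 and, at 3 h, Ccne1.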
